A study of Homo sapiens with 5 samples.

Results

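The retromer complex, its sorting nexin adaptors and the Wnt carrier WLS were followed through RNA sequencing of RPE-1 cells in which FAM53C was knocked down. The 10 genes were SNX3, SNX27, VPS26A, VPS29, VPS35, SNX1, SNX2, SNX5, SNX6 and WLS, found by their GENCODE symbols among the 64252 gene identifiers of the count table, of which 56105 matched a symbol. All 10 had enough counts to be among the 15341 genes compared. The group was chosen by the log2 fold change of SNX3, known to be far below 0 after FAM53C knockdown in these same libraries, so the difference of SNX3 between conditions is described without a test.

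RPE-1 is an immortalized human cell line derived from retinal pigment epithelium. Wild-type RPE-1 cells were transfected by Lipofectamine RNAiMAX with a negative control siRNA (siCtrl, 3 libraries) or with a pool of ON-TARGETplus siRNAs directed at FAM53C (siFAM53C, 2 libraries), both at 5 µM by the labels, and RNA was taken 48 hr later. Both conditions thus share the line, the reagent and the time, and the knockdown rests on 1 siRNA pool against 1 control siRNA. The libraries held 24099968, 19694561 and 19260124 counts in siCtrl and 25615415 and 22993116 in siFAM53C. The sources used here do not say whether the libraries of a condition came from separate cultures, so p-values measure only the spread between these libraries, which may be technical.

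Retromer is a trimer of VPS26, VPS29 and VPS35 that sits on endosomes and sends membrane proteins back to the Golgi or the cell surface instead of the lysosome. SNX3 binds the endosomal lipid PI3P through its PX domain and brings retromer to endosomes that carry WLS, the transmembrane protein that escorts lipid-modified Wnt ligands from the Golgi to the cell surface. SNX27 pairs with retromer to return cargo to the cell surface, and SNX1 or SNX2 pairs with SNX5 or SNX6 in the ESCPE-1 coat, which retrieves cargo such as the mannose 6-phosphate receptor.

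The knockdown target was examined first. FAM53C (ENSG00000120709) had 60.9, 59.7 and 57.6 CPM in siCtrl and 14.2 and 22.3 in siFAM53C, where CPM is the count scaled to a common library total with TMM factors. The change on the log2 scale was -1.71 (SE 0.19, adjusted p = 0.003625). Adjusted p-values here and below are from the quasi-likelihood test of edgeR, adjusted after Benjamini and Hochberg over all genes compared. Its exons share 704 bases with genes on the opposite strand.

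The libraries did not separate by siRNA alone. Along the first principal component (39.8% of the variance in log2 CPM), siCtrl replicates 1 and 2 lay at -31.5 and -47.4, siCtrl replicate 3 at 33.7, and siFAM53C replicates 1 and 2 at 0.26 and 44.9. Differences between conditions were therefore also taken within 2 sets of libraries, siFAM53C replicate 1 against siCtrl replicates 1 and 2 (first side) and siFAM53C replicate 2 against siCtrl replicate 3 (second side), and in a model that also holds the side (side term). On this component siFAM53C replicate 1 lay between the siCtrl libraries, so its place on the first side is a choice and not a result. The sides were read from the same expression values, and the second holds 1 library of each condition, so calls made with the side term are given only as an alternative to the model without it.

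The label of epithelial cells was checked against marker genes. Of 6 genes listed as epithelial markers, 3 exceeded 1 CPM in siCtrl, among them CDH2, which is not specific to epithelium. The keratins KRT8 and KRT18 stood at 259 ± 24.6 and 168 ± 17.7 CPM (SD, n = 3) and the cadherin CDH2 at 327 ± 56.1, while CDH1, EPCAM and KRT19 had siCtrl means of 0.0524, 0.0566 and 0.0873 CPM. Of 8 markers of retinal pigment epithelium, the transcription factors MITF (40.0 ± 7.78 CPM, SD, n = 3) and OTX2 (16.0 ± 1.21 CPM, SD, n = 3) exceeded 1 CPM, and RPE65 and TTR had 0 counts in every library, which allows up to 0.113 to 0.157 CPM per library. Of 5 mesenchymal markers 4 exceeded 1 CPM, led by FN1 at 5636 ± 1299 CPM (SD, n = 3). Their sum was 8528, 9384 and 11546 CPM in siCtrl and 8960 and 11001 in siFAM53C, so it was higher in the libraries of the second side. Some single markers also differed between conditions without overlap: the collagen COL1A1 had 15.8 to 18.6 CPM in siCtrl and 29.2 and 29.4 in siFAM53C, KRT8 had 236 to 285 and 319 and 328, CDH2 had 289 to 391 and 214 and 266, the mesenchymal THY1 had 242 to 275 and 216 and 227, and OTX2 had 14.7 to 17.1 and 13.5 and 14.4. Among all genes compared, both siFAM53C libraries lay below all siCtrl libraries in 18.8% and above them in 16.7%. A lack of overlap in single markers is therefore not read as a result. The part of these markers in the differences described next was not tested. None of 4 immune or 3 endothelial markers exceeded a mean of 1 CPM in siCtrl, though the leukocyte gene PTPRC reached 1.05 CPM in siCtrl replicate 3, and of 3 neural markers only MAP2 did, at 35.9 CPM.

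SNX3 (ENSG00000112335, GRCh38 chromosome 6, 108211222 to 108261246, minus strand) had 3013, 2485 and 1949 counts in siCtrl and 606 and 514 in siFAM53C. These correspond to 128, 130.0 and 102 CPM against 22.9 and 21.8 CPM, or 120.0 ± 15.5 (SD, n = 3) against 22.4 ± 0.770 (SD, n = 2). The lowest siCtrl library thus remained far above the higher siFAM53C library, and the SNX3 level in siFAM53C was 18.6% of that in siCtrl. The log2 fold change was -2.42 (SE 0.15), with -2.49 and -2.22 within the sides. Among the 15341 genes compared, 41 had a lower log2 fold change, and among the 9301 genes with a mean of at least 10 CPM, 10 did. No exon base of SNX3 is shared with a gene on the opposite strand. In bulk RNA, fewer cells that contain a transcript and less transcript per cell cannot be told apart.

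The 3′ untranslated regions (UTRs) were searched for the heptamer GACAAGA, which was chosen with earlier results of these same libraries known and so supports nothing here. The sequences of the siRNA pool were not analysed here, so the heptamer was not compared with them. The longest annotated 3′ UTR in GENCODE release 44 was read in the orientation of the mRNA, and 11.5% of the 12072 compared genes with such a UTR hold the heptamer. Its reverse complement stands in 14.7% of them, among them SNX1 (3 places), SNX2 (3), SNX27 (1) and VPS26A (1), and not in SNX3. SNX3 holds it once, 153 bases into a UTR of 927 bases, and 3.77% of the 1353 genes whose UTR length lies within 20% of that of SNX3 hold it. Among the other 9 genes, SNX1 holds it at 2 places (UTR of 6613 bases) and VPS35 at 1 (4340 bases), where 28.9% and 22.1% of UTRs of like length hold it. The letters were not found in the UTRs of SNX2, SNX5, SNX6, SNX27, VPS26A, VPS29 or WLS. FAM53C, the siRNA target, holds the heptamer at 1 place (UTR of 2770 bases), where 16.2% of UTRs of like length hold it. The following stretches of 27 bases are given to let the sites be compared, 5′ to 3′ in the orientation of the mRNA, with the heptamer in capitals.
SNX3, chr6:108211980-108212006, minus strand: tttggcagttGACAAGAagttaatttg
VPS35, chr16:46656229-46656255, minus strand: gcagagcaaaGACAAGAggagatcagc
SNX1 first site, chr15:64138952-64138978, plus strand: ggcaacctgaGACAAGAaaacgcagta
SNX1 second site, chr15:64143270-64143296, plus strand: gagataaatgGACAAGAacaactgaag
The bases around the heptamer differ among the 4 stretches, which were read from hg38. A match of these letters is a description of the sequence, and whether the sites bear on the levels was not tested.

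SNX27 (ENSG00000143376, chromosome 1, 151612006 to 151699091, plus strand), the other PX domain adaptor of retromer in the group, had 43.2, 37.5 and 42.6 CPM in siCtrl and 45.3 and 37.0 CPM in siFAM53C. The libraries of the conditions overlapped, and the log2 fold change was 0.0025 (SE 0.13, edgeR adjusted p = 0.9956), with 0.17 and -0.20 within the sides. Its exons share 362 bases with genes on the opposite strand.

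The core subunits of retromer were measured in the same libraries. VPS35 (ENSG00000069329, chromosome 16, 46656132 to 46689518, minus strand), the scaffold on which the trimer is built, had 205, 209 and 205 CPM in siCtrl and 199 and 186 CPM in siFAM53C. Both siFAM53C libraries lay below all siCtrl libraries, by a small margin, and the log2 fold change of -0.10 (SE 0.10) did not pass the test (edgeR adjusted p = 0.6964). VPS26A (ENSG00000122958, chromosome 10, 69123512 to 69174412, plus strand), an arrestin-fold subunit that contacts SNX3 and the cargo, had 186, 229.7 and 211 CPM in siCtrl and 203 and 200.0 CPM in siFAM53C, with a log2 difference of -0.05 (SE 0.12, edgeR adjusted p = 0.8765). VPS29 (ENSG00000111237, chromosome 12, 110491083 to 110502111, minus strand), which binds the far end of VPS35 and regulators of the complex, had 61.2, 72.9 and 75.6 CPM in siCtrl and 63.3 and 74.3 CPM in siFAM53C, with a log2 difference of -0.02 (SE 0.13, edgeR adjusted p = 0.96). For VPS26A and VPS29 the siFAM53C libraries lay within the range of the siCtrl libraries, and the sign of the difference turned to 0.02 and 0.05 when library totals replaced TMM factors. VPS26B (ENSG00000151502), the paralog of VPS26A, had 69.4, 65.6 and 49.5 CPM in siCtrl and 58.5 and 52.4 CPM in siFAM53C (log2 fold change -0.15, SE 0.16, edgeR adjusted p = 0.716).

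**Figure D1:**
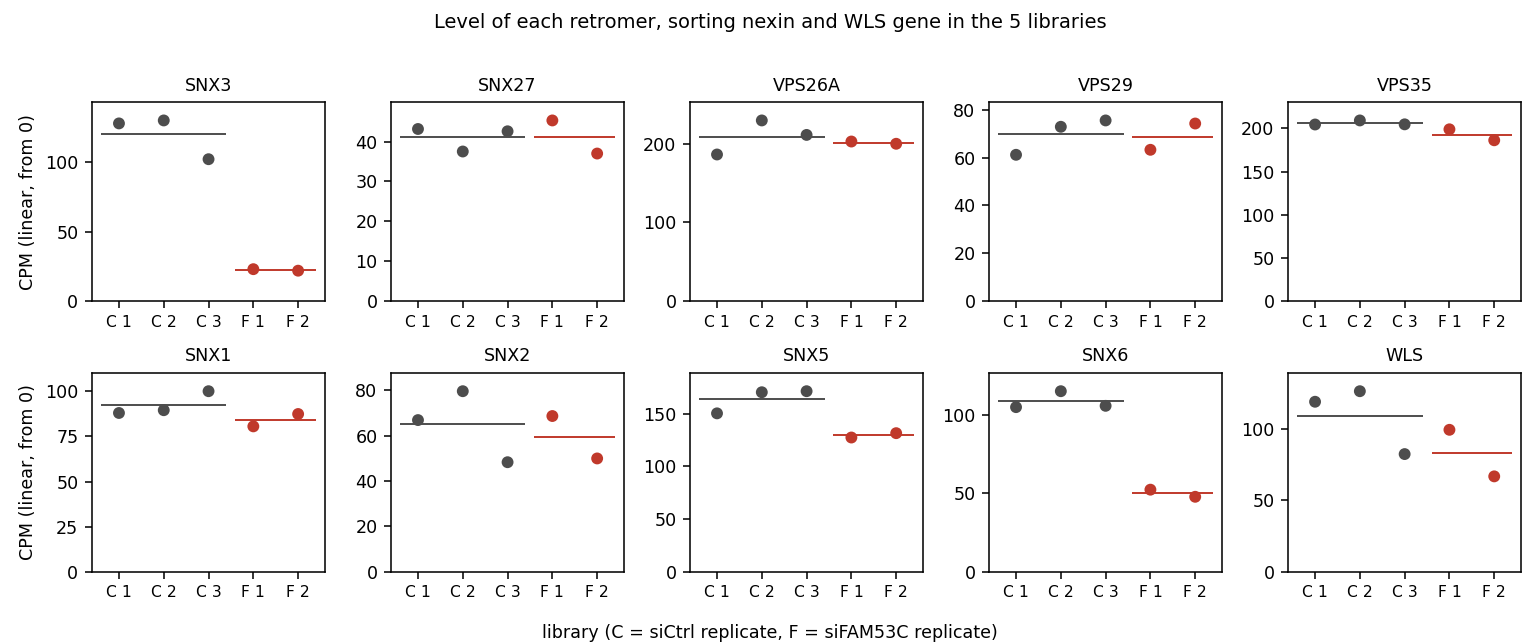
Level of each of the 10 genes by library, in CPM on a linear axis from 0, with siCtrl libraries (C) as grey points, siFAM53C libraries (F) as red points and the mean of each condition as a line. SNX3 lies at 102 to 130.0 CPM in siCtrl and at 21.8 and 22.9 in siFAM53C, and SNX6 at 105 to 115 and at 47.9 and 52.4.

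SNX6 fell and its ESCPE-1 partners did not pass the test. SNX6 (ENSG00000129515, chromosome 14, 34561093 to 34630160, minus strand), a sorting nexin with a membrane-bending BAR domain, had 2477, 2204 and 2023 counts in siCtrl and 1387 and 1128 in siFAM53C. In CPM it stood at 105, 115 and 106 in siCtrl and at 52.4 and 47.9 in siFAM53C, so the mean in siFAM53C was 46.1% of that in siCtrl (108.8 ± 5.65, SD, n = 3, against 50.1 ± 3.22, SD, n = 2). The log2 fold change was -1.12 (SE 0.11, edgeR adjusted p = 0.00201), -1.07 and -1.15 within the sides, and between -1.19 and -1.05 under 13 alternative fits, in each of which SNX6 was called lower. Of its exon bases, 182 are shared with the opposite strand.

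SNX5 (ENSG00000089006, chromosome 20, 17941597 to 17968980, minus strand), the paralog of SNX6 that binds the cargo of ESCPE-1, had 150.5, 171 and 172 CPM in siCtrl and 128 and 132 CPM in siFAM53C. Both siFAM53C libraries were below every siCtrl library, and the mean was 78.9% of that in siCtrl (164 ± 11.9, SD, n = 3, against 129.6 ± 2.92, SD, n = 2). The log2 fold change of -0.34 (SE 0.11) did not pass the test (edgeR adjusted p = 0.156). It was -0.33 and -0.38 within the sides, and with the side term it was -0.35 and passed (edgeR adjusted p = 0.007899).

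SNX1 (ENSG00000028528, chromosome 15, 64094123 to 64146090, plus strand), which pairs with SNX5 or SNX6, had 88.0, 89.5 and 100.1 CPM in siCtrl and 80.6 and 87.4 CPM in siFAM53C. The siFAM53C libraries lay just below the siCtrl range (log2 fold change -0.14, SE 0.11, edgeR adjusted p = 0.5957). SNX2 (ENSG00000205302, chromosome 5, 122775079 to 122834543, plus strand), its paralog, had 66.8, 79.5 and 48.3 CPM in siCtrl and 68.6 and 49.9 CPM in siFAM53C, and here the conditions overlapped (log2 fold change -0.13, SE 0.23, edgeR adjusted p = 0.8408). In siCtrl replicate 3 the log2 CPM of SNX2 differed by -0.59 from the mean of siCtrl replicates 1 and 2, while within the sides siFAM53C differed from siCtrl by -0.09 and 0.05.

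WLS (ENSG00000116729, chromosome 1, 68098473 to 68233120, minus strand), the cargo that SNX3 and retromer recycle, had 119, 126 and 82.1 CPM in siCtrl and 99.1 and 66.6 CPM in siFAM53C. The ranges overlapped, since siFAM53C replicate 1 lay above siCtrl replicate 3. The log2 fold change was -0.40 (SE 0.23, edgeR adjusted p = 0.4638), and it ranged from -0.72 to -0.14 as each library was left out in turn. WLS also moved with the side, by -0.57 in log2 CPM between siCtrl replicate 3 and the mean of siCtrl replicates 1 and 2. Within the sides siFAM53C differed by -0.30 and -0.30, and with the side term the difference of -0.30 passed the test (edgeR adjusted p = 0.01796). Exons of WLS share 111 bases with GNG12-AS1 on the opposite strand.

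Of the 9 genes other than SNX3, 1 was called lower (SNX6) and 0 higher at an edgeR adjusted p under 0.05, where 3.47% of all genes compared were called lower and 0.489% higher. SNX3, chosen for this contrast, is left out of this and the next counts. At an unadjusted p under 0.05, 2 of the 9 were lower, beside 10.5% of all genes, and 0 higher, beside 6.61%. DESeq2 called SNX6 lower and 0 higher, beside 6.98% and 2.02% of the genes to which it gave an adjusted p. Values below 0 on the log2 scale were found in 8 of 9 genes, with a median of -0.13, against 48.2% of all genes and a median of 0.02. In 4 genes (SNX6, SNX5, SNX1 and VPS35) both siFAM53C libraries lay below all siCtrl libraries, as 18.8% of all genes did, and in 0 genes above, as 16.7% did. With the side term, 3 of the 9 were called lower (SNX6, SNX5 and WLS), beside 10.7% of all genes, and 0 higher, beside 6.76%. With a block for the replicate number in the column names, 2 were called lower (SNX6 and SNX5), beside 8.8% of all genes, and 0 higher, beside 4.18%. This block groups the libraries as the side term does, except that siCtrl replicate 2 stands alone. A gene that passes with both, here or below, has therefore not passed 2 independent alternatives.

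**Figure D2:**
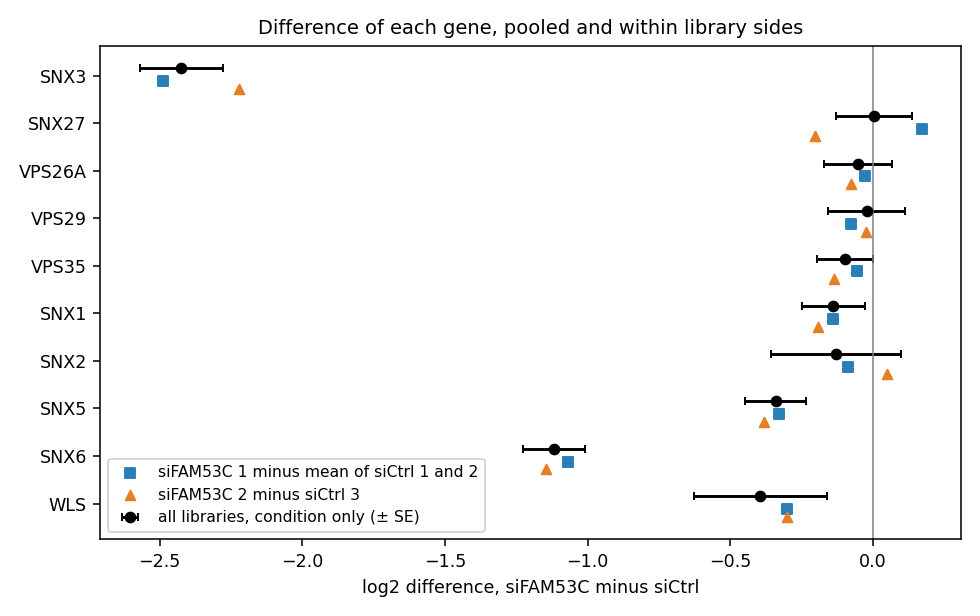
Log2 fold changes of siFAM53C against siCtrl for the 10 genes over all libraries (black points, bars of 1 SE), with the difference within the first side as a blue square and within the second side as an orange triangle. SNX3 (-2.42) and SNX6 (-1.12) are set apart from the other 8 genes, which lie between -0.40 and 0.0025.

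To compare levels between genes, CPM was divided by the length of the union of annotated exons in kilobases. In siCtrl, SNX3 had the highest level of the 10 genes, 65.7 ± 8.50 CPM per kilobase (SD, n = 3), and its libraries did not overlap those of VPS26A (40.9 ± 4.25). VPS26A in turn lay above SNX6 (26.7 ± 1.38). SNX6, WLS (24.4 ± 5.27), VPS29 (21.7 ± 2.38), VPS35 (21.2 ± 0.274) and SNX5 (20.6 ± 1.49) followed, each overlapping its neighbour in this order. SNX1 (9.45 ± 0.671) and SNX2 (7.54 ± 1.83) overlapped each other below them, and SNX27 was lowest at 2.46 ± 0.186 CPM per kilobase.

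In siFAM53C, SNX3 stood at 12.2 ± 0.421 CPM per kilobase (SD, n = 2), rank 7 of 10, and SNX6 at 12.3 ± 0.788, rank 6. The rank of SNX3 was 1 in siCtrl and 7 in siFAM53C also when the length of the canonical transcript was used, but the order of others depended on the length: SNX5 moved from rank 7 to rank 2 in siCtrl, at 70.1 ± 5.07 CPM per kilobase (SD, n = 3), where it overlapped SNX3 at 78.2 ± 10.1. The order of genes close to each other is thus tied to the transcripts taken as their length.

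**Figure D3:**
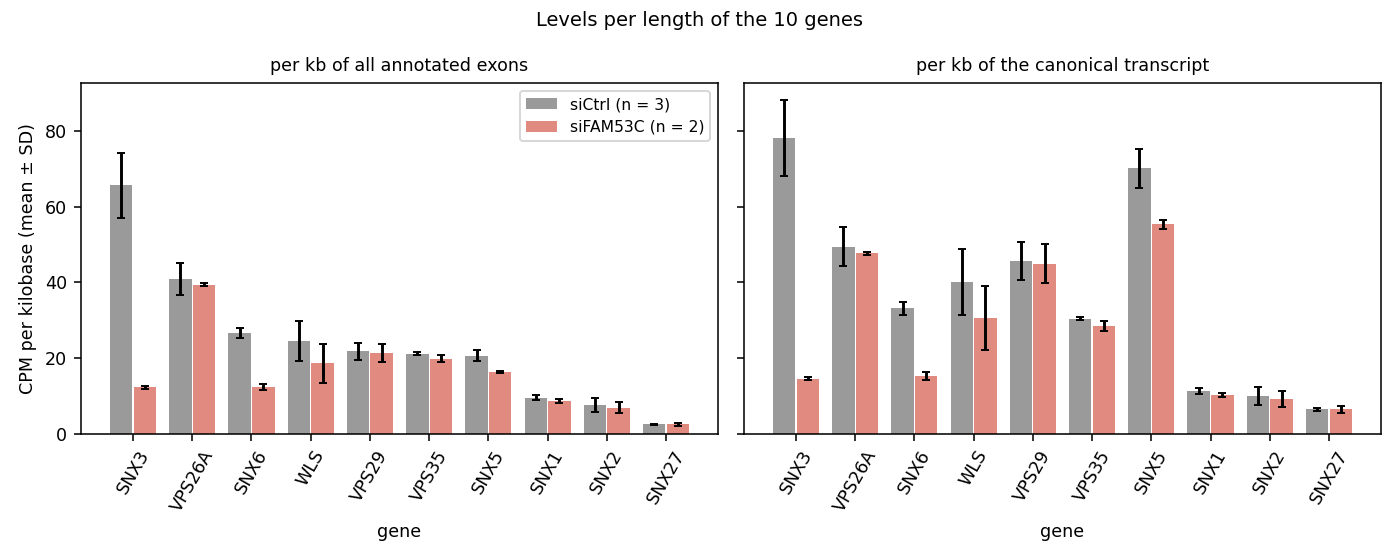
Mean level of the 10 genes in CPM per kilobase of all annotated exons (left) or of the canonical transcript (right), as bars with SD for siCtrl (grey, n = 3) and siFAM53C (red, n = 2), in the order of the siCtrl mean on the left. SNX3 is the highest gene in siCtrl (65.7 on the left, 78.2 on the right) and rank 7 of 10 in siFAM53C.

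Ratios within a library give the balance between partners. The SNX3 level per kilobase was 3.33, 3.31 and 2.65 times that of VPS35 in the siCtrl libraries and 0.613 and 0.623 times in the siFAM53C libraries, so the order of the adaptor and the scaffold was turned in both siFAM53C libraries. The same turn was seen with canonical transcript lengths (2.76, 2.74 and 2.20 against 0.508 and 0.517). The ratio of SNX6 to SNX5 was 1.36, 1.32 and 1.20 in siCtrl and 0.801 and 0.708 in siFAM53C. With canonical lengths it was 0.498, 0.482 and 0.441 against 0.293 and 0.259, so it was lower in siFAM53C by either length, while which of these genes is the higher in siCtrl depends on the length. The ratios of VPS26A to VPS35 (1.73, 2.09 and 1.96 against 1.94 and 2.04) and of VPS29 to VPS35 (0.905, 1.05 and 1.12 against 0.962 and 1.21) overlapped between conditions. The ratio of SNX2 to SNX1 moved with the side, at 0.864 and 1.01 in siCtrl replicates 1 and 2 and 0.968 in siFAM53C replicate 1, against 0.548 in siCtrl replicate 3 and 0.649 in siFAM53C replicate 2. The summed level of SNX5 and SNX6 was 2.67, 2.70 and 3.00 times that of SNX1 and SNX2 in siCtrl and 1.78 and 1.92 times in siFAM53C, and with canonical lengths 4.58, 4.66 and 5.38 against 3.45 and 3.86 times. Ratios involving SNX3 and SNX6 carry the differences of those genes and are given as descriptions. Reads placed on autosomal processed copies were few: of 7 annotated pseudogenes of these genes, the highest count in any library was 3, for SNX5P1. The 7 are copies of SNX2, SNX5, SNX6, VPS26A and VPS35, so nothing is said of copies of SNX3 or the other genes.

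The genes most like SNX3 were sought among 9300 other genes with a mean of at least 10 CPM by Pearson's r of log2 CPM over the 5 libraries. Among the closest were TM9SF4 (r = 0.99998), an endomembrane protein with many transmembrane segments, SHLD2 (r = 0.9998), a subunit of the shieldin complex in DNA repair, MYO10 (r = 0.9998), an unconventional myosin of filopodia, and GTF3A (r = 0.9998), the transcription factor TFIIIA of 5S ribosomal RNA genes. The 5 points share their 2 conditions, so each r mostly repeats the difference between them, and the size of that difference was free to vary: the log2 fold change was -0.53 for TM9SF4, -0.43 for SHLD2, -1.58 for MYO10 and -2.44 for GTF3A. Of these, GTF3A had 171, 176 and 132 CPM in siCtrl and 29.5 and 29.3 CPM in siFAM53C. The heptamer GACAAGA stands in the 3′ UTRs of TM9SF4 (1 site) and MYO10 (2 sites) and was not found in those of SHLD2 and GTF3A. Of UTRs of like length, 10.5% hold it for TM9SF4, 24.96% for MYO10, 4.11% for SHLD2 and 0.87% for GTF3A. The stretch around the heptamer in TM9SF4 is given to be set beside that of SNX3.
TM9SF4, chr20:32166636-32166662, plus strand: cccaggaatgGACAAGAagccaactta

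Other genes of the pathway were counted in 12 lists, 124 genes without the 10 above, of which 100 were compared. At an edgeR adjusted p under 0.05, 6 of the 100 were lower (WASHC4, COMMD8, SNX19, MTMR2, WNT5A and TNFRSF19), beside 3.47% of all genes, and 0 were higher, beside 0.489%. At an unadjusted p under 0.05, 21 were lower and 4 higher, beside 10.5% and 6.61% of all genes, and the 21 include ZNRF3, which passed the filter on low counts only through siCtrl. These shares of all genes, at adjusted and unadjusted p, stand beside the counts of each list below. DESeq2 called 9 lower and 1 higher, SNX12, beside 6.98% and 2.02% of the genes to which it gave an adjusted p. Values below 0 were found in 58 of the 100, with a median of -0.09, against 0.02 over all genes. The 6 calls depended on single libraries: 0 of them remained without siFAM53C replicate 1 (edgeR adjusted p from 0.0523 to 0.294), 1 without siCtrl replicate 2 (TNFRSF19), and 2 each without siCtrl replicate 1 (TNFRSF19 and WASHC4) and siFAM53C replicate 2 (TNFRSF19 and WNT5A), while all 6 remained without siCtrl replicate 3. All 6 stayed below 0 in each of these fits, between -2.80 and -0.51. The heptamer GACAAGA stands in the 3′ UTRs of SNX19 (3 sites), WNT5A (1) and TNFRSF19 (1). It was not found in those of WASHC4, COMMD8 and MTMR2. Of UTRs of like length, 56.4% hold it for SNX19, 22.4% for WNT5A and 15.98% for TNFRSF19. Whether these sites bear on the levels was not tested.

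**Figure D4:**
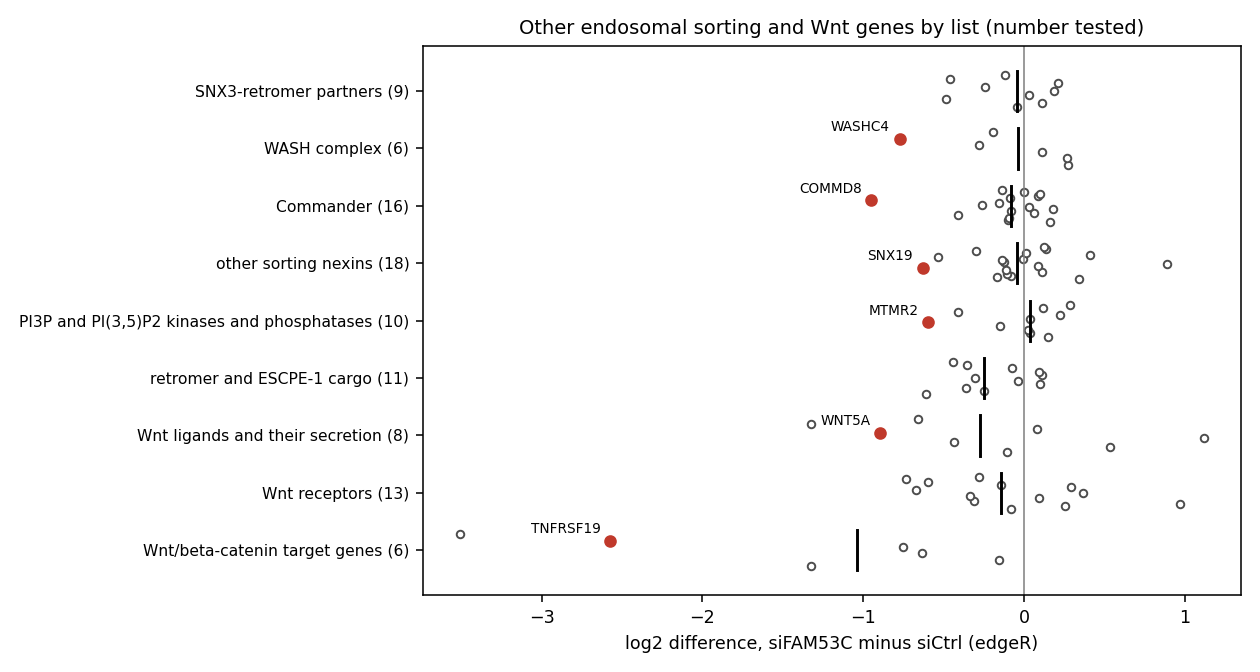
Log2 fold changes of siFAM53C against siCtrl for the compared genes of the pathway lists with more than 1 gene, one point per gene, with genes called by edgeR filled in red and named and the median of each list as a black bar. The 6 called genes all lie below 0, the lowest of them TNFRSF19 at -2.57, while ZNRF3, named after its values were seen, lies at -3.51 and was not called (adjusted p = 0.225).

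Among the relatives of the adaptors, SNX12 (ENSG00000147164), the close paralog of SNX3, differed in the opposite direction. It had 54.2, 56.5 and 44.2 CPM in siCtrl and 77.4 and 69.7 CPM in siFAM53C, and both siFAM53C libraries lay above all siCtrl libraries. The log2 fold change of 0.51 (SE 0.13) did not pass the test (edgeR adjusted p = 0.09374), and it passed with the side term, at 0.56 (edgeR adjusted p = 0.0005093). SNX32, the third paralog of SNX5 and SNX6, was scarce and uneven, with 1.57, 0.157 and 0.786 CPM in siCtrl libraries against 0.756 and 1.02 CPM in siFAM53C libraries, and the conditions overlapped.

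Of 9 partners of SNX3 and retromer, 0 were called lower and 0 higher (1 and 0 at an unadjusted p under 0.05), with a median of -0.04. RAB7A, the late endosomal GTPase that recruits retromer, had 326, 351 and 308 CPM in siCtrl and 244 and 234 CPM in siFAM53C, without overlap. Its log2 fold change of -0.46 (SE 0.11) did not pass the test (edgeR adjusted p = 0.06923) and passed with the side term (-0.44, edgeR adjusted p = 0.001008). EHD1, an ATPase of recycling tubules, differed by -0.25 (SE 0.13, edgeR adjusted p = 0.4185).

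The WASH complex nucleates actin on endosomes at the sites where retromer sorts. Of 6 genes for its subunits, WASHC4 was called lower and 0 higher (1 higher at an unadjusted p under 0.05), with a median of -0.04. WASHC4 had 94.4, 98.6 and 104 CPM in siCtrl and 57.5 and 58.2 CPM in siFAM53C, a log2 difference of -0.77 (SE 0.10, edgeR adjusted p = 0.006995), with -0.75 and -0.83 within the sides. WASHC5 differed by -0.19 (SE 0.12, edgeR adjusted p = 0.4787). WASHC1, WASHC2A and WASHC2C have near-identical copies in the genome, so their counts are uncertain.

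Commander is a separate recycling coat that uses SNX17 as its adaptor. Of its 16 genes, COMMD8 was called lower and 0 higher (0 higher at an unadjusted p under 0.05), with a median of -0.08. COMMD8 had 41.0, 47.9 and 31.4 CPM in siCtrl and 21.8 and 19.8 CPM in siFAM53C (log2 fold change -0.95, SE 0.19, edgeR adjusted p = 0.03754). SNX17 (0.10, SE 0.21, edgeR adjusted p = 0.8631) and the VPS35-like subunit VPS35L (-0.14, SE 0.10, edgeR adjusted p = 0.5548) did not pass the test.

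Of the 18 further sorting nexins compared, out of 21, SNX19 was called lower and 0 higher (2 higher at an unadjusted p under 0.05), with a median of -0.04. SNX19 had 110.0, 108 and 137 CPM in siCtrl and 73.1 and 79.4 CPM in siFAM53C (log2 fold change -0.63, SE 0.13, edgeR adjusted p = 0.04688), and it was no longer called when library totals replaced TMM factors (edgeR adjusted p = 0.0807). SNX9, which acts in endocytosis at the plasma membrane, differed by 0.13 (SE 0.16, edgeR adjusted p = 0.7675).

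PI3P, the lipid that SNX3 binds, is made by the PIK3C3 kinase complex and removed by phosphatases of the myotubularin family. Of 10 such kinases, phosphatases and partners, the myotubularin MTMR2 was called lower and 0 higher (0 higher at an unadjusted p under 0.05), with a median of 0.04. MTMR2 had 128, 142 and 142 CPM in siCtrl and 89.2 and 92.2 CPM in siFAM53C, a log2 difference of -0.60 (SE 0.10, edgeR adjusted p = 0.02165). Its exons share 1481 bases with genes on the opposite strand, so its count is uncertain if counting ignored the strand. VAC14, the scaffold of the PIKFYVE kinase, differed by 0.29 (SE 0.15, edgeR adjusted p = 0.3759). VAC14 passed as higher with the side term (0.33, edgeR adjusted p = 0.009553) and the block for column number (0.31, edgeR adjusted p = 0.03785).

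Of 11 cargo genes compared, out of 12, 0 were called lower and 0 higher (4 and 0 at an unadjusted p under 0.05), 8 had a log2 fold change below 0 and the median was -0.25. The side term called 4 lower, beside 10.7% of all genes, and 0 higher, beside 6.76%. The mannose 6-phosphate receptors were chosen for mention after their values were seen. IGF2R differed by -0.36 (SE 0.14, edgeR adjusted p = 0.2455) and M6PR by -0.04 (SE 0.12, edgeR adjusted p = 0.9285). IGF2R passed with the side term (-0.39, edgeR adjusted p = 0.0033) and the block for column number (-0.37, edgeR adjusted p = 0.01639), M6PR with neither. The glucose transporter SLC2A1, carried by SNX27 and retromer, had 644, 605 and 553 CPM in siCtrl and 596 and 544 CPM in siFAM53C, with overlap (-0.08, SE 0.12, edgeR adjusted p = 0.8186). NRP1, a semaphorin and VEGF receptor, differed by -0.31 (SE 0.20, edgeR adjusted p = 0.5057). NRP1 passed with the side term (-0.25, edgeR adjusted p = 0.04268) but not with the block for column number (-0.27, edgeR adjusted p = 0.071).

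Wnt ligands, the load of WLS, were present as few genes: 8 of 21 genes of ligands and their secretion had enough counts. WNT5B was the most abundant of them, at 327, 356 and 331 CPM in siCtrl and 369 and 344 CPM in siFAM53C (log2 fold change 0.08, SE 0.11, edgeR adjusted p = 0.7905). WNT5A, a ligand mostly known for signalling without β-catenin, fell from 146, 159 and 162 CPM in siCtrl to 73.2 and 94.3 CPM in siFAM53C. Its log2 fold change was -0.89 (SE 0.13, edgeR adjusted p = 0.01259), with -1.05 and -0.78 within the sides. It was the only gene of this list called lower, 0 were called higher (0 at an unadjusted p under 0.05), and the list's median was -0.27.

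Of 13 Wnt receptors compared, out of 15, 0 were called lower and 0 higher, with a median of -0.14. At an unadjusted p under 0.05, 4 were lower, beside 10.5% of all genes, and 0 higher, beside 6.61%. The side term called 4 lower, beside 10.7% of all genes, and 1 higher, beside 6.76%. The Frizzled receptors FZD2 (0.26, SE 0.16, edgeR adjusted p = 0.4787) and FZD6 (-0.34, SE 0.10, edgeR adjusted p = 0.1211) were the most abundant. FZD2 passed as higher with the side term (0.32, edgeR adjusted p = 0.01274) and the block for column number (0.31, edgeR adjusted p = 0.04306). FZD6 passed as lower with the same 2 alternatives (-0.34, edgeR adjusted p = 0.01114, and -0.32, edgeR adjusted p = 0.03857). FZD6 had 90.3, 93.4 and 91.9 CPM in siCtrl and 72.6 and 73.0 CPM in siFAM53C, without overlap.

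Of 12 targets of Wnt and β-catenin signalling, 6 had enough counts to be compared. The difference was below 0 in all 6, beside 48.2% of all genes, with a median of -1.04 on the log2 scale. ZNRF3 passed the filter on low counts only through siCtrl (5, 15 and 11 counts against 0 and 2), so its sign was fixed by the filter and nothing is read from the counts or the median of this list. TNFRSF19, a receptor of the tumour necrosis factor family, was called lower, at 6.62, 6.23 and 7.70 CPM in siCtrl and 0.983 and 1.32 CPM in siFAM53C (log2 fold change -2.57, SE 0.31, edgeR adjusted p = 0.004499). Of the others 0 were called in either direction, and at an unadjusted p under 0.05 the list had 4 lower, ZNRF3 among them, and 0 higher. The secreted inhibitor DKK1, the most abundant, differed by -0.16 (SE 0.16, edgeR adjusted p = 0.708), and the transcription factor TCF7 by -0.75 (SE 0.54, edgeR adjusted p = 0.5712). TCF7 passed with the side term (-0.49, edgeR adjusted p = 0.04156) but not with the block for column number (-0.42, edgeR adjusted p = 0.1039). AXIN2, a feedback inhibitor of the pathway chosen for mention after its values were seen, had 2.67, 1.94 and 3.25 CPM in siCtrl and 0.945 and 1.15 CPM in siFAM53C. The log2 fold change of AXIN2, -1.32 (SE 0.41), did not pass the test (edgeR adjusted p = 0.1469). AXIN2 passed with the side term (-1.38, edgeR adjusted p = 0.02367) and the block for column number (-1.50, edgeR adjusted p = 0.02202).

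**Figure D5:**
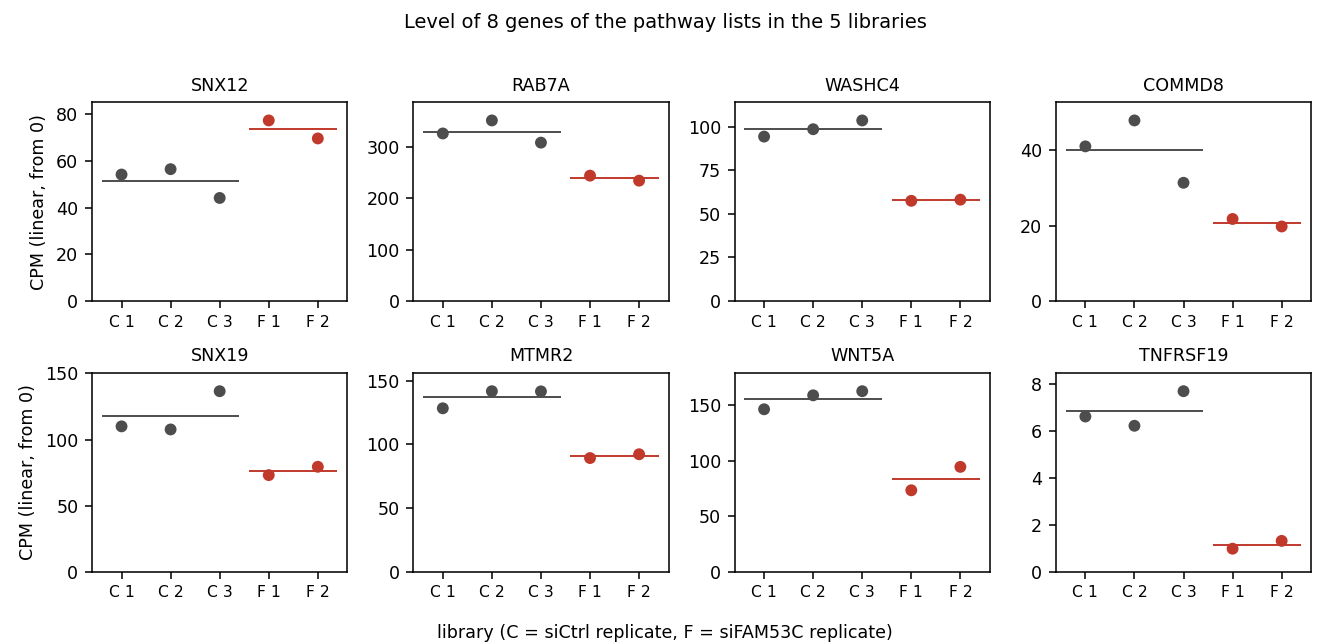
Level by library of SNX12, RAB7A and the 6 pathway genes called lower, in CPM on linear axes from 0, with siCtrl libraries (C) in grey, siFAM53C libraries (F) in red and condition means as lines. SNX12 lies higher in both siFAM53C libraries (69.7 and 77.4) than in siCtrl (44.2 to 56.5), and the other 7 genes lie lower in both siFAM53C libraries than in every siCtrl library.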

How the data were processed

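The authors trimmed paired reads with CutAdapt 2.10, aligned them as reverse-stranded to hg38 with HISAT2 and counted them per gene with featureCounts. They deposited raw counts, with no normalization or filter, in 1 table that holds the 5 libraries. The annotation release and the strand setting of the counting are not given in the sources used here, so genes that share exon bases with the opposite strand are uncertain if strand was ignored. The labels and the methods name different RNA kits, and the methods give duplicates where 3 siCtrl libraries were deposited. All 5 libraries were used.

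Symbols, positions, exon lengths and 3′ UTRs came from GENCODE release 44 on GRCh38, which may differ from the authors' annotation. The counts entered edgeR 4.0.16 (R 4.3.3), using filterByExpr (minimum count 10, minimum total 15), TMM factors, robust quasi-likelihood fits on condition alone, Benjamini-Hochberg adjustment over all genes compared and a threshold of 0.05. The SE of a log2 fold change is its size divided by the square root of F. A prior count of 2 was used for log2 CPM. The fit was tested on simulated counts. Library totals of 19260124 to 25615415 limit the precision of low genes.

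The 10 genes, the pathway lists, the heptamer and the side term were chosen with earlier results of these data known. Named by rule were FAM53C, the 10 genes, each list's called genes and its 2 most abundant in siCtrl, and the 5 genes most correlated with SNX3, of which 1 is not reported here. Alternatives were DESeq2 1.42.0, RLE size factors, library totals, no filter on low counts, each library left out, replicate blocks, the side term and, added after seeing the data, a fit without robust shrinkage.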

Additional observations from a re-analysis of the deposited data

How the results depend on the processing

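SNX3 stayed between -2.53 and -2.35 and SNX6 between -1.19 and -1.05 on the log2 scale under all 13 alternative fits. Genes called lower (533 in the fit of the report) and higher (75) numbered 890 and 257 with DESeq2, 961 and 375 without a filter on low counts, and 415 and 121 with library totals, and 157 to 886 and 6 to 414 as each library was left out. The share of calls that were lower, 87.7% in the report, was 77.6% with DESeq2, 77.4% with library totals, 71.9% without a filter, 70.7% and 67.8% with the title and column blocks, 61.2% with the side term, and 68.2% (without siCtrl replicate 3) to 96.8% (without siCtrl replicate 2) as each library was left out. SNX6 was called lower in each fit. With SNX3, whose call is no support since it was chosen for its difference, 2 of the 10 genes were called lower, 3 with the column block and 4 with the side term, and 0 were called higher in any fit. Pathway genes called lower (6) and higher (0) numbered 11 and 1 without a filter and 0 to 11 and 0 to 2 as each library was left out, and DESeq2 called 9 lower and 1 higher. The causes were not tested.

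Replicate numbers did not clearly pair the libraries: deviations from the condition means correlated at 0.17 for number 1 and -0.28 for number 2 by title, and at 0.17 for number 1 and 0.37 for number 3 by column name, since siFAM53C replicate 2 carries number 3 in its column. With 2 siFAM53C libraries these deviations mirror each other. A replicate block by title number called 856 genes lower and 355 higher, and 13 pathway genes lower and 1 higher, and a replicate block by column number called 1350 and 642, and 17 and 3. In the column block SNX5 passed the test at -0.31. The side term called 1636 lower and 1037 higher, 21 pathway genes lower and 5 higher, and SNX5 (-0.35) and WLS (-0.30) passed.

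Differences near 0 changed sign. SNX2 was 0.043 with the column block and -0.38 to 0.078 as each library was left out. SNX27 was -0.064 with the column block and -0.16 to 0.14. VPS26A was 0.018 with library totals, 0.022 with the column block and -0.13 to 0.019. VPS29 was 0.047 with library totals, 0.038 with the title block, 0.012 with the column block and -0.15 to 0.083. With 2 siFAM53C libraries, leaving out either leaves 1, whose spread is assumed to equal that of siCtrl.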
